A study of Mus musculus with 11 samples.

Results

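Cdkn1a, Spc25, Fancf, Cdc23 and Cdk19 are genes of the cell cycle, of chromosome segregation, of DNA damage repair and of the transcription machinery. They were taken by gene symbol from the deposited RNA-seq table of NF-Y knockdown in mouse striatum, and are 5 of its 1767 genes. Male C57BL/6 (B6) mice received an AAV vector in the striata of both hemispheres at 6 weeks of age, and the tissue was taken 3 weeks later. The 6 NT2 control mice carried a vector with EmGFP and the non-targeting miR NT2, and the 5 NF-YA/YC knockdown mice one with EmGFP and the miRs YA-8 and YC-2 against NF-YA and -YC, both under the CAG promoter. Tissue was dissociated with papain, EmGFP-positive and propidium iodide-negative cells were sorted by FACS, and their RNA was amplified as cDNA and sequenced. The model is a knockdown, not a knockout, and CAG is active in many cell types, so that a sample can hold cells of more than 1 type. Counts summed over the listed genes, which are not library depths, ran from 1581757 to 3141324 in controls and from 1954949 to 3010153 in knockdown samples.

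NF-Y is a trimer of NF-YA, -YB and -YC that binds the CCAAT box of promoters, and in dividing cells many of its target genes drive the cell cycle. Neurons of the adult striatum have left the cell cycle, but they still express some cell cycle proteins and repair their DNA. Cdkn1a, the p53 target that encodes p21, is a common readout of DNA damage and of growth arrest.

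Every gene of the table had a deposited p-value under 0.05 for the same contrast, so that the numbers of called genes below describe the table and not the transcriptome, and every p-value below is of a gene selected in this way. A gene was called at an edgeR adjusted p-value under 0.05. With counts scaled by TMM, which takes most genes as unchanged, 3 of the 5 genes were called, compared with 60.3% of all listed genes. The listed genes were selected for a difference between the groups, so that this table may not meet that assumption. Calls that differ between the scalings depend on it. Cdkn1a was up-regulated, as were 39.0% of listed genes, and Spc25 and Cdk19 were down-regulated, as were 21.3%. With the authors' own scaling factors, all 5 were called against 79.5% of listed genes, Cdkn1a as up-regulated (32.2% of listed genes) and the other 4 as down-regulated (47.3%). The authors' scaling moved the log2 fold change of listed genes by a median of -0.13. The 5 genes had a median log2 fold change of -0.25 with TMM and of -0.38 with the authors' scaling, compared with -0.13 and -0.27 for all listed genes. When the 439 of the 1767 genes without a count of at least 200 in any sample were left out, 643 of the remaining genes were called. Cdkn1a was the only 1 of the 5 among them. In the samples numbered 3 to 10, 4 per group, edgeR called 0 of the 5 with TMM, beside 207 of the 1767 genes. At an unadjusted p under 0.05 it found 2 of the 5 there, and the share of all genes was not counted. With the authors' scaling it called 1, Spc25, beside 323 of the 1767, a combination chosen after seeing the data. The samples numbered 21 to 23 hold 1 knockdown sample, too few for a comparison of their own.

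Nfyc, a target of the knockdown, lies on chromosome 4 from 120430040 to 120504180 (mm9). Its normalized count in the knockdown samples was 975 in sample 4, 840 in sample 6, 887 in sample 8, 603 in sample 10 and 722 in sample 22, and the 6 controls had a lowest value of 733, a median of 898 and a highest value of 1206. The groups overlapped, with 2 knockdown samples below the lowest control. The log2 fold change was -0.19 (standard error, SE, 0.15, edgeR adjusted p = 0.26; two-sided exact permutation p = 0.27), and -0.32 with the authors' scaling (SE 0.14, edgeR adjusted p = 0.053; exact permutation p = 0.050). Nfyc was thus not called under either scaling, although with the authors' scaling it passed the threshold without control 23 or knockdown sample 4 (-0.36 and -0.40, the lower edgeR adjusted p being 0.045). With the glial score, described below, as a covariate, Nfyc was at -0.52 and not called (SE 0.17, unadjusted p = 0.011, edgeR adjusted p = 0.084). By qRT-PCR of the sorted cells the authors reported lower NF-YC, and a reduction of NF-YA that was not significant. Nfya and Nfyb were not analysed here.

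The glial markers in the table, most of them of astrocytes, were lower on average in the knockdown. Of 39 astrocyte, oligodendrocyte and microglia markers, 7 were in the table, with log2 fold changes from -1.54 to -0.35. The other markers have no value here. They may have had a p-value of 0.05 or above in the same contrast or have been filtered out, so the 7 do not stand for all 39. With TMM 6 of them were down-regulated, as were 21.3% of all listed genes. By cell type, 5 of 14 astrocyte markers were in the table, all of them down-regulated (-1.54 to -0.88), 1 of 13 oligodendrocyte markers, Ugt8a, also down-regulated (-0.50), and 1 of 12 microglia markers, P2ry12, not called (-0.35, edgeR adjusted p = 0.095). P2ry12 was down-regulated too with the authors' scaling (-0.49, edgeR adjusted p = 0.036). The TMM calls were lost in 8 of the 11 fits without 1 sample for Ugt8a, in 7 for Gja1 and in 3 each for Aldoc and Fgfr3, and in none for Slc1a3 and Gjb6. These 6 calls were kept in all 11 fits with the authors' scaling, and that of P2ry12 in 2 of them. In samples 3 to 10, Slc1a3 was the only 1 of the 7 still called with TMM. Slc1a3, Gjb6 and Aldoc were called there with the authors' scaling. The TMM log2 fold changes in these samples were -1.18 for Gja1, -1.50 for Gjb6, -1.20 for Aldoc and -1.43 for Fgfr3. They were -1.03, -1.54, -1.14 and -1.37 over all samples. Their edgeR adjusted p-values in samples 3 to 10 ran from 0.051 to 0.061. Ugt8a was at -0.28 there (edgeR adjusted p = 0.275). The summed normalized count of the 7 was 40895, 41442, 48169, 48934 and 55708 in knockdown samples 4, 6, 8, 10 and 22, and had a lowest value of 49059, a median of 74745 and a highest value of 112034 in controls. The most abundant was P2ry12, a microglial receptor, and none of the 7 was at 0 in any sample. The astrocyte glutamate transporter Slc1a3 fell from 17198 ± 5314 (SD, n = 6) to 9317 ± 2319 (SD, n = 5). The glial score, the mean of the 7 centred log2 values, 5 of them of astrocyte genes, differed by -0.90 between knockdown and control samples. No test is given for it, because its genes are those of the marker lists that the same contrast had selected for the table. Fits with this score as a covariate share that limit. They cannot separate the score from the groups, and smaller fold changes or lost calls in them are given as a description. Of 12 vascular markers, 9 were in the table (-1.58 to -0.39) and 7 of them were down-regulated with TMM. Pecam1 and Tek were not called with TMM, but were down-regulated with the authors' scaling (-0.52 and -0.65, edgeR adjusted p = 0.042 and 0.032). Of all listed genes, 21.3% were down-regulated with TMM and 47.3% with the authors' scaling. None of the 8 neuron markers and 13 striatal projection neuron markers was among the listed genes. In such bulk samples, fewer cells of a type and less RNA per cell cannot be told apart.

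Cdkn1a encodes p21, which binds and inhibits cyclin-dependent kinases and is transcribed in response to p53. It lies on chromosome 17 from 29227931 to 29237667 on the plus strand (mm9). Its normalized count was 4562, 3917, 4151, 3332 and 3809 in knockdown samples 4, 6, 8, 10 and 22, and had a lowest value of 2026, a median of 2599 and a highest value of 3619 in controls. Of the 5 knockdown samples, 4 lay above the highest control. The groups overlapped because control 3, at 3619, was above knockdown sample 10. The mean was 2665 ± 602 (SD, n = 6) in controls and 3954 ± 452 (SD, n = 5) in the knockdown, a rise of 1.48-fold (log2 fold change 0.57, SE 0.15, edgeR adjusted p = 0.016; two-sided exact permutation p = 0.0087). With the authors' scaling the log2 fold change was 0.44 (SE 0.13, edgeR adjusted p = 0.022). Cdkn1a remained called when any 1 of the 11 samples was left out, under either scaling. When the glial score was added as a covariate, with the limit given above, the value was 0.23 (SE 0.15, edgeR adjusted p = 0.30). Control 3 had the lowest glial score of the controls. Over all alternatives the adjusted p ranged from 0.0023 to 0.51, and the part of glial content in the difference was not tested. An unclassified transcript is annotated on the opposite strand of the locus (GENCODE M21), and the library kit is not stated to keep strand.

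Cdk19 is a kinase of the Mediator complex, the paralog of Cdk8, and takes part in transcription rather than in the cell cycle proper. It spans chromosome 10 from 40059370 to 40203624 on the plus strand (mm9). Knockdown samples 4, 6, 8, 10 and 22 had normalized counts of 2414, 1973, 2360, 2408 and 2103, and the controls a lowest value of 2358, a median of 2649 and a highest value of 3071. Only control 5, at 2358, overlapped the knockdown samples, and the other 5 controls lay above all of them. The mean went from 2669 ± 229 (SD, n = 6) to 2252 ± 202 (SD, n = 5), or by log2 fold change -0.25 (SE 0.093, edgeR adjusted p = 0.039; two-sided exact permutation p = 0.011). Cdk19 thus had a smaller change than Cdkn1a but also a smaller spread, with a coefficient of variation of 8.58% in controls compared with 22.6% for Cdkn1a. With counts scaled by the authors' factors the groups did not overlap, which was so for 13.0% of listed genes, and the log2 fold change was -0.38 (SE 0.095, edgeR adjusted p = 0.015; exact permutation p = 0.0043). With TMM none of the 5 genes had groups that did not overlap, against 13.9% of listed genes. The call with TMM was lost when any 1 sample other than control 3, control 5 or knockdown sample 10 was left out, with adjusted p-values of up to 0.092, whereas with the authors' scaling it was kept in all 11 cases. It was also lost with the number series of the samples as a covariate (-0.24, edgeR adjusted p = 0.055). With the glial score as a covariate Cdk19 was at -0.31 (SE 0.13, unadjusted p = 0.030 and edgeR adjusted p = 0.13). Adjusted p-values ran from 0.0064 to 0.22 over the alternatives. An antisense gene, Cdk19os, overlaps the locus, and reads from the pair of strands cannot be told apart.

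Cdc23 encodes a subunit of the anaphase-promoting complex, the ubiquitin ligase that starts anaphase and that is also present in neurons. It lies on chromosome 18 from 34790605 to 34811390 on the minus strand (mm9). Its normalized count was 870, 1146, 901, 1219 and 1187 in knockdown samples 4, 6, 8, 10 and 22, and had a lowest value of 1067, a median of 1179 and a highest value of 1417 in controls. Knockdown samples 4 and 8 were below every control, and the other 3 lay within the control range. The mean was 1212 ± 134 (SD, n = 6) in controls and 1064 ± 166 (SD, n = 5) in the knockdown. The log2 fold change of -0.19 was not called (SE 0.12, edgeR adjusted p = 0.17, two-sided exact permutation p = 0.15). With the authors' scaling it was -0.32 and called (SE 0.13, edgeR adjusted p = 0.038), but this call was kept in 4 of the 11 fits that left out 1 sample, those without control 3, control 23, knockdown sample 10 or knockdown sample 22, and adjusted p-values in the 11 ranged from 0.020 to 0.082. Adding the glial score as a covariate put Cdc23 at -0.03 (SE 0.16, edgeR adjusted p = 0.88). Estimated counts may be fractional where reads are shared between genes, which was not tested. They were fractional, by at least 0.001 from a whole number, in 11 samples for Cdc23 and 9 for Cdkn1a. The same held in 8 samples each for Spc25 and Fancf and in 2 for Cdk19. The mitotic kinesin gene Kif20a is annotated over part of the locus on the opposite strand, and the value of Cdc23 is uncertain to that extent.

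Spc25 is a subunit of the Ndc80 complex, which attaches kinetochores to spindle microtubules, and is a gene of dividing cells. It lies on chromosome 2 from 69031952 to 69044247 on the minus strand (mm9). Normalized counts were 296, 163, 264, 263 and 262 in knockdown samples 4, 6, 8, 10 and 22, and had a lowest value of 239, a median of 344 and a highest value of 488 in controls. Knockdown sample 6 was far below the other 4, which lay close together, and 4 of the 6 controls were above all knockdown samples. The mean was 355 ± 91.6 (SD, n = 6) in controls and 250 ± 50.3 (SD, n = 5) in the knockdown, 1.42-fold lower. The log2 fold change was -0.50 (SE 0.21, edgeR adjusted p = 0.049), just past the threshold, with a two-sided exact permutation p of 0.058. Without knockdown sample 6 it was -0.39 and not called (edgeR adjusted p = 0.11), and the call was kept only without control 3 or control 21. With the authors' scaling the log2 fold change was -0.64 (SE 0.21, edgeR adjusted p = 0.026; exact permutation p = 0.015), and Spc25 stayed called without any 1 of the 11 samples, with adjusted p-values of up to 0.048. With the glial score as a covariate it was -0.37 (SE 0.29, edgeR adjusted p = 0.37), and over all alternatives the adjusted p ranged from 0.014 to 0.37.

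Fancf encodes an adaptor of the Fanconi anemia core complex, which acts in the repair of DNA interstrand cross-links. It is a gene of 1 exon on chromosome 7 from 59115949 to 59117637 on the minus strand (mm9). Its normalized count was 132, 133, 150, 95.7 and 134 in knockdown samples 4, 6, 8, 10 and 22, and had a lowest value of 108, a median of 200 and a highest value of 257 in controls. All 5 knockdown samples were below the control median, but controls 9 and 5, at 108 and 143, lay within their range. The mean was 187 ± 54.4 (SD, n = 6) in controls and 129 ± 20 (SD, n = 5) in the knockdown. The log2 fold change of -0.54 missed the threshold (SE 0.23, edgeR adjusted p = 0.055; two-sided exact permutation p = 0.061). It was called without control 9 (-0.65, edgeR adjusted p = 0.030), and with the authors' scaling (-0.68, SE 0.24, edgeR adjusted p = 0.029). The latter call was lost without control 7, control 21 or knockdown sample 10, at adjusted p-values of 0.057, 0.054 and 0.058. With the glial score as a covariate Fancf was at -0.51 (SE 0.33, edgeR adjusted p = 0.28), and the adjusted p ranged from 0.019 to 0.28 over all alternatives. Fancf had the lowest counts of the 5 genes, and Gas2 is annotated over it on the opposite strand.

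**Figure D1:**
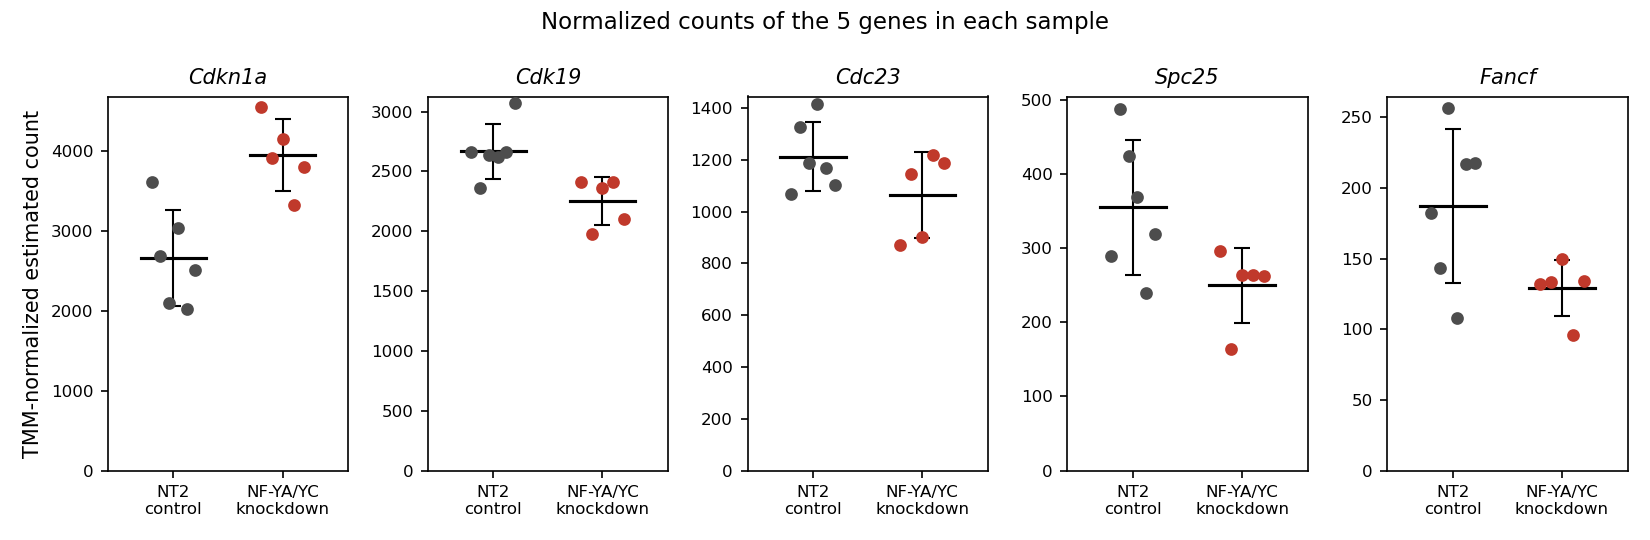
TMM-normalized estimated count (vertical axes, from 0) of each gene in 6 controls (NT2) and 5 samples with NF-YA/YC knockdown, with a point per sample, the mean as a horizontal line and bars of 1 SD. Of the 5 knockdown samples, 4 lay above the highest control for Cdkn1a, and the groups overlapped for all 5 genes.

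Levels of the genes were compared per kilobase of the longest GENCODE M21 transcript. In controls, the normalized count per kilobase was 1281 ± 289 for Cdkn1a, 460 ± 39.4 for Cdk19, 293 ± 32.5 for Cdc23, 190 ± 49.0 for Spc25 and 111 ± 32.2 for Fancf (SD, n = 6). In the knockdown samples the levels per kilobase were 1901 ± 218, 388 ± 34.7, 258 ± 40.2, 134 ± 26.9 and 76.3 ± 11.8 in the same order (SD, n = 5). The order was thus the same in both groups. Among neighbours in the order, Spc25 and Fancf in controls had overlapping ranges of mean ± SD, and those of the other neighbours did not overlap in either group.

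Other genes of the same pathways were followed in 8 lists of 213 genes, of which 19 were in the table, the 5 genes included. Of the other 14, 6 were up-regulated with TMM, beside 39.0% of all listed genes. By edgeR 0 were called as down-regulated, beside 21.3%. At an unadjusted p under 0.05, 0 of the 14 were lower, beside 476 of the 1767 listed genes. DESeq2 called 0 as down-regulated, beside 459 of the 1767. With the authors' scaling 4 were up-regulated and 5 down-regulated, beside 32.2% and 47.3% of all listed genes. The 14 had a median log2 fold change of 0.01 with TMM and -0.13 with the authors' scaling.

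Among 30 p53 target genes, 4 were in the table. Cdkn1a, Bbc3 and Aen were up-regulated under both scalings, as were 39.0% of all listed genes with TMM and 32.2% with the authors' scaling. The calls of Bbc3 and Aen with the authors' scaling were lost in 8 of the 11 fits that left out 1 sample. Adjusted p-values there reached 0.078 for Bbc3 and 0.065 for Aen. Bbc3, which encodes the pro-apoptotic protein Puma, had a mean normalized count of 200 ± 32.8 (SD, n = 6) in controls and 292 ± 40.7 (SD, n = 5) in the knockdown, a log2 fold change of 0.54 (SE 0.16, edgeR adjusted p = 0.020). Aen, an apoptosis-enhancing nuclease, went from 597 ± 100.3 to 817 ± 36.0 (log2 fold change 0.45, SE 0.12, edgeR adjusted p = 0.016). For each of the pair, 4 of 5 knockdown samples lay above the highest control. Rrm2b, the p53-inducible subunit of ribonucleotide reductase, had a fitted change (log2) of -0.32 that was not called (edgeR adjusted p = 0.12), and was called as down-regulated with the authors' scaling (-0.46, edgeR adjusted p = 0.036) and with TMM without knockdown sample 10 (-0.48, edgeR adjusted p = 0.035). The call with the authors' scaling was lost in 7 of the 11 fits without 1 sample, with adjusted p-values of up to 0.074. The glial markers in the table differed between the groups too, and their part was not tested. When the glial score entered the fit, Bbc3 was at 0.70 (edgeR adjusted p = 0.066) and Aen at 0.43 (edgeR adjusted p = 0.13).

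Of 31 cyclins, CDKs and their regulators, Ccnd1, Rbl2 and Cdkn1a were in the table. Ccnd1, which encodes the G1 cyclin D1, rose from 615 ± 178 (SD, n = 6) to 1063 ± 144 (SD, n = 5) with a log2 fold change of 0.79 (SE 0.18, edgeR adjusted p = 0.011), the largest of the 19 genes. It was 0.67 with the authors' scaling (edgeR adjusted p = 0.015) and 0.47 with the glial score as a covariate (edgeR adjusted p = 0.17). Rbl2, the Rb-related pocket protein p130, had a fitted change (log2) of -0.26 with TMM (edgeR adjusted p = 0.087) and was down-regulated with the authors' scaling (-0.40, edgeR adjusted p = 0.027), a call lost in 1 of the 11 fits without 1 sample (edgeR adjusted p = 0.051). Cdk19 was the only gene of the 7 of the Mediator kinase module in the table. Spc25 was the only one of the 37 genes in the list for kinetochore and checkpoint. The lists do not hold every gene of these functions. The kinetochore gene Zw10 and the cyclin gene Ccng2, among others, are in the table but in no list. With TMM neither was called (-0.35 and -0.16, edgeR adjusted p = 0.058 and 0.202). Both were down-regulated with the authors' scaling (-0.48 and -0.30, edgeR adjusted p = 0.0245 and 0.040). The cell cycle genes Sass6 and Cdc14a, also in no list, were up-regulated with TMM, as were 39.0% of all listed genes. Their log2 fold changes were 0.73 and 0.40 (edgeR adjusted p = 0.011 and 0.032). With the authors' scaling Sass6 was up-regulated (0.60, edgeR adjusted p = 0.020) and Cdc14a was not called (0.27, edgeR adjusted p = 0.065). Of 19 anaphase-promoting complex genes, Anapc2 and Anapc5 were listed beside Cdc23, with TMM log2 fold changes of 0.01 and 0.01 that were -0.12 and -0.13 with the authors' scaling, none of them called. Usp1, which deubiquitinates Fancd2, was listed beside Fancf among 24 Fanconi genes, at -0.03 with TMM (edgeR adjusted p = 0.74).

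Of 43 genes of DNA damage signalling and repair, 5 were in the table. With TMM 3 were up-regulated and 0 down-regulated, and with the authors' scaling 1 was up-regulated and 2 were down-regulated, beside 39.0% up and 21.3% down of all listed genes with TMM and 32.2% and 47.3% with the authors' scaling. Atrip, the partner of the kinase ATR, rose from 1180 ± 302 (SD, n = 6) to 1693 ± 224 (SD, n = 5), or by log2 fold change 0.52 (SE 0.16, edgeR adjusted p = 0.024), and was up-regulated with the authors' scaling too (0.40, edgeR adjusted p = 0.037), where the call was lost in 8 of the 11 fits without 1 sample. The checkpoint kinase gene Chek2 had a fitted change (log2) of 0.51 (SE 0.20, edgeR adjusted p = 0.039), but with the authors' scaling it was 0.39 and not called (edgeR adjusted p = 0.061). When 1 sample was left out with TMM, Chek2 stayed called only without control 3 or knockdown sample 4, at adjusted p-values of up to 0.099 otherwise. With the glial score as a covariate Atrip was at 0.20 (edgeR adjusted p = 0.42) and Chek2 at 0.34 (edgeR adjusted p = 0.35), and neither was called. The DNA ligase gene Lig3, at -0.16 with TMM, was called as down-regulated only with the authors' scaling (-0.29, edgeR adjusted p = 0.041), and that call was lost in 10 of the 11 fits without 1 sample, with adjusted p-values of up to 0.078. Rrm1, the large subunit of ribonucleotide reductase, was the only listed gene of 25 for replication and proliferation (-0.15 with TMM, edgeR adjusted p = 0.25, and -0.28 and called with the authors' scaling, edgeR adjusted p = 0.047). The latter call was kept in 3 of the 11 fits without 1 sample, with adjusted p-values of up to 0.093.

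**Figure D2:**
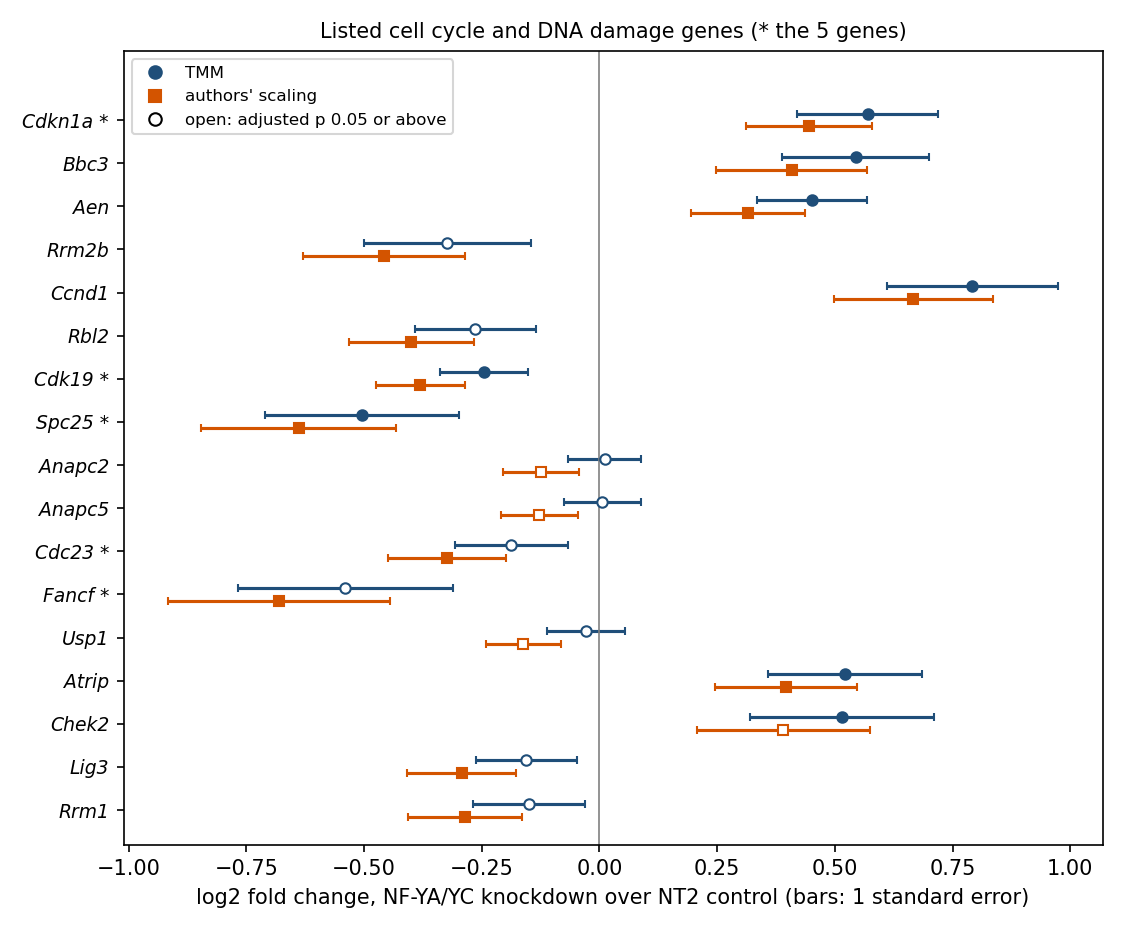
Log2 fold change of NF-YA/YC knockdown over NT2 control (horizontal axis) with bars of 1 standard error for 17 of the 19 listed genes, with TMM (circles) and with the authors' scaling (squares), filled where the edgeR adjusted p was under 0.05. The authors' scaling moved every gene shown to the left, and Cdkn1a, Bbc3, Aen, Ccnd1 and Atrip were filled on the right under both.

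The genes whose log2 normalized counts were most like those of each of the 5, after group means were removed, were taken from the 1766 other listed genes over the 11 samples, as a description. They were Tnfrsf12a (Pearson r = 0.96, Spearman rho = 0.91) and Snora7a (r = 0.94, rho = 0.95) for Cdkn1a. For Cdk19 they were Rnf167 (r = 0.82, rho = 0.87) and Eif4ebp3 (r = 0.79, rho = 0.73), and for Spc25 they were Dhx40 (r = 0.94, rho = 0.85) and LOC100503331 (r = 0.92, rho = 0.75). Zfp2 (r = 0.92, rho = 0.92) and 2410066E13Rik (r = 0.91, rho = 0.82) were closest to Cdc23, and Ssr1 (r = 0.91, rho = 0.60) and Gpr155 (r = 0.89, rho = 0.85) to Fancf. Of these 10 genes, 3 were called with TMM and 7 with the authors' scaling, beside 60.3% and 79.5% of all listed genes. Tnfrsf12a, a receptor of the TNF family, was up-regulated like Cdkn1a (log2 fold change 0.73, edgeR adjusted p = 0.021). Dhx40 was up-regulated (0.37, edgeR adjusted p = 0.016), opposite to Spc25, and Gpr155 was down-regulated (-0.36, edgeR adjusted p = 0.044), in the direction of Fancf. No gene of the 5 was among the nearest of another.

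Because NF-Y binds CCAAT, these letters were searched on both strands, as CCAAT or ATTGG, in RefSeq promoter windows from 250 bases before to 50 bases after the start (GRCm38.p6). Of the 5 genes, 3 had a window, Cdkn1a with 2 windows and Spc25 and Fancf with 1 each. Of all 32851 windows, 37.4% held at least 1 match, 11.7% at least 2 and 3.37% at least 3, and 38.1% of the 1594 windows of listed genes held at least 1. Neither window of Cdkn1a held a match. Spc25 held 2 matches, which begin 55 and 23 bases before the start, and Fancf held 3, which begin 118, 72 and 31 bases before it, all in the direction of the gene. The 250 bases before the start are shown for these genes, whose counts were both lower on average in the knockdown, with each match in capitals. They lie at chr2:69206214-69206463 for Spc25 and at chr7:51862268-51862517 for Fancf, both on the minus strand and written 5′ to 3′ in the direction of the gene.
Spc25: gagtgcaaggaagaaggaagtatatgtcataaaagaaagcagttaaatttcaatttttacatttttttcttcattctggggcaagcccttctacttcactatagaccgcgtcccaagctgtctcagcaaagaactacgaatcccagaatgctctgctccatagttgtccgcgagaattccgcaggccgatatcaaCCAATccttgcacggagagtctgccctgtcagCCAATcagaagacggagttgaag
Fancf: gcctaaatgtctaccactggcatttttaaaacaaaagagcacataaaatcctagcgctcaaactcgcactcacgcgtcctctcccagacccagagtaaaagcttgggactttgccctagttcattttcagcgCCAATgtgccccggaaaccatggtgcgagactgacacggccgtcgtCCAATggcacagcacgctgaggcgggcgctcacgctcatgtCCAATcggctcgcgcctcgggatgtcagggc

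A match of these letters is a description of the sequence. Binding of NF-Y to these promoters was not measured in the samples.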

How the data were processed

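Reads were counted per gene by the authors with Strand NGS (build mm9 per the submitters' processing notes), and the deposited values are estimated counts that are not normalized. A second set of columns holds log2 values, for which the authors divided the estimated counts by 1 factor for each sample and subtracted the median of the gene. These served only to recover the factors, which ranged from 0.66 to 1.27. Columns with the authors' fold changes and p-values were not used, except to find that all p-values are under 0.05. The arrays of N2a cells were not used here.

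Estimated counts were rounded and fitted over all 1767 genes with edgeR 4.0.16 in R 4.3.3 (glmQLFit and glmQLFTest, TMM, no covariate), with Benjamini-Hochberg adjustment, after the fit had been tested on simulated data. The standard error is the log2 fold change divided by the root of F. Normalized counts are estimated counts divided by effective library size relative to its geometric mean. Exact permutation tests used log2(normalized count + 0.5) over all 462 divisions of 11 samples into 6 and 5, with 0.0022 as the smallest p-value. The chi-square per degree of freedom was at least 20.5 in the 25 within-group pairs, and all libraries were kept. Named genes are the 5 genes, NF-Y subunits, listed pathway genes and markers, Zw10, Ccng2, Sass6 and Cdc14a, and the nearest 2 genes by correlation. Of the genes in the lists, 2 are counted but are not reported here one by one. The members and lists were chosen with earlier results of these data known. Alternatives included DESeq2 1.42.0, a fold threshold of 1.2 at an unadjusted p under 0.05, and a pseudocount of 1. Combinations of the authors' scaling with the glial score, with samples 3 to 10 or with leaving out each sample were chosen after seeing the data.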

Additional observations from a re-analysis of the deposited data

Results flagged for a closer look

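In 42 groups of 5 or 6 samples tested for a sample apart from the others, 3 samples stood out, and chance gives about 1 in 20 groups. Spc25 in knockdown sample 6 had a normalized count of 163, compared with 262 to 296 in the other 4 knockdown samples, a gap of 0.797 of the range on the log2 scale. Fancf in knockdown sample 10 had 95.7, compared with 132 to 150 in the other 4, a gap of 0.717 of the range. Chek2 in control 3 had 318, compared with 163 to 202 in the other 5 controls, a gap of 0.678 of the range, and without that control its log2 fold change was 0.68 (edgeR adjusted p = 0.0054) in place of 0.51. The cause was not tested.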

How the results depend on the processing

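Cdkn1a, Spc25, Fancf, Cdc23 and Cdk19 kept their direction in all 31 alternative fits, with log2 fold changes from 0.13 to 0.68, -0.80 to -0.37, -0.80 to -0.43, -0.40 to -0.03 and -0.42 to -0.17, but their calls depended on scaling, covariates and samples. These fits share most or all samples with the main fit, and the same contrast had selected the genes. A kept direction is thus not independent support. The authors' scaling called 836 genes as down-regulated (9 of the pathway lists) in place of 377 (2 of the lists), and added Fancf (-0.68) and Cdc23 (-0.32). Fancf was also called with DESeq2 size factors (-0.55) and by DESeq2 (-0.56). Genes with a highest count of at least 200 gave 643 calls, 180 of them down-regulated and 0 of those in the lists. Spc25 (-0.46) and Cdk19 (-0.20) lost their calls there, with 439 fewer genes tested. The number series as a covariate left 1 down-regulated gene of the lists, and Cdk19 (-0.24) was not called.

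With the glial score as a covariate, 90 genes were called (74 higher, 16 lower), 0 and 0 of them in the lists. At an unadjusted p under 0.05 edgeR found 1 of the 5 genes, Cdk19. The share of all genes at that threshold was not counted, here or in samples 3 to 10. The genes of the score were selected by the same contrast, so that fits with it cannot separate the score from the groups. Cdkn1a was at 0.23, Spc25 at -0.37 and Cdk19 at -0.31. With the authors' scaling added, 34 were called (27 higher, 7 lower), 0 and 0 in the lists, with Cdkn1a at 0.13, Spc25 at -0.44 and Cdk19 at -0.38. In samples 3 to 10, 4 per group, 207 genes were called (150 higher, 57 lower), 1 and 0 in the lists. There Cdkn1a (0.48), Spc25 (-0.67) and Cdk19 (-0.17) were not called, 2 of the 5 genes had an unadjusted p under 0.05, and the glial score difference was -0.91. The authors' scaling in these samples gave 323 (128 higher, 195 lower), 0 higher in the lists, with Cdkn1a (0.36) and Cdk19 (-0.29) not called. These combinations with the authors' scaling, and the second range of each pair below, were chosen after seeing the data.

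Leaving out each sample in turn, with TMM and then with the authors' scaling, gave 511 to 680 and 355 to 568 up-regulated genes, 208 to 441 and 493 to 790 down-regulated genes, 6 to 7 and 2 to 6 up-regulated genes of the lists, and 0 to 2 and 3 to 9 down-regulated ones. Spc25 ranged from -0.60 to -0.39 and from -0.72 to -0.52, Fancf from -0.65 to -0.43 and from -0.80 to -0.56, Cdc23 from -0.24 to -0.12 and from -0.37 to -0.26, Cdk19 from -0.28 to -0.20 and from -0.42 to -0.33, and Nfyc from -0.27 to -0.10 and from -0.40 to -0.23. Anapc2, near 0, was at -0.0035 with DESeq2 size factors, -0.12 with the authors' scaling, -0.0045 by DESeq2, -0.0063 with the glial score and -0.070 with both, and -0.095 in samples 3 to 10 with the authors' scaling. Anapc5, also near 0, was at -0.0085, -0.13, -0.0080, -0.067, -0.14 and -0.13 in the same order, and at -0.0070 in samples 3 to 10 with TMM. Usp1 was at 0.021 with the count minimum. Without 1 sample, Anapc2 ranged from -0.031 to 0.036 with TMM and from -0.17 to -0.097 with the authors' scaling, Anapc5 from -0.013 to 0.040 and from -0.15 to -0.11, and Usp1 from -0.044 to 0.0016 and from -0.19 to -0.14. The cause of these changes was not tested. A pseudocount of 1 changed no permutation call. No paired analysis was possible because the groups share no sample number. Library depths were not known from the table, and Fancf and Spc25, with the lowest counts, had the largest standard errors of the 5.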
